A study of Mus musculus with 12 samples.

Results

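The nuclear genes described here encode parts of the mitochondrial respiratory chain and of ATP synthase, or in a few cases factors tied to them. They were chosen by name, as every gene whose only symbol in the array annotation began with Nduf, Uqcr or Atp5, or with Cox4 to Cox8, or was Sdha, Sdhb, Sdhc, Sdhd or Cyc1. The rule found 72 of the 8251 genes with a single symbol, read by 100 of the 12488 probe sets of the array. By complex they were 31 genes of complex I, 4 of complex II, 8 of complex III, 15 of complex IV and 14 of ATP synthase. The assembly factors Ndufaf1 and Ndufaf4 were counted in complex I, and the supercomplex factor Cox7a2l in complex IV. A filter on dim probe sets was passed by 68 of the 72 genes, 30, 4, 8, 12 and 14 in the same order of complexes. The 4 that failed it were Ndufa12, Cox5a, Cox6a2 and Cox8a, whose signal lay between 1.43 and 31.3 on every array, so nothing is said of their response.

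RNA was measured on 12 Affymetrix MG_U74Av2 arrays from mouse embryonic stem cells, all of 1 clone, C2, a derivative of the E14tg2a line with targeted recognition sites for the endonuclease I-SceI. Control cells were kept in phosphate-buffered saline (PBS) alone (n = 3). Low-dose cells were given 100 µM hydrogen peroxide, an oxidant that crosses membranes, in PBS for 15 min (n = 4), and high-dose cells were given 5 mM for 30 min (n = 5). Treated cells then recovered for 1 h in maintenance medium before RNA was taken. The controls' time in PBS is not given in the sources used here, and it is not plain that they had the same recovery, so an effect of handling cannot be told apart from one of the peroxide. Concentration and exposure time change together, so neither can be read alone from the doses. The labels do not say that replicates were separate cultures, so each p-value reflects the spread between samples alone, which may be technical.

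The respiratory chain passes electrons from NADH, through complex I, and from succinate, through complex II, to ubiquinone, then through complex III and cytochrome c to complex IV, which reduces oxygen. Complexes I, III and IV pump protons, and ATP synthase uses the gradient to make ATP. Complexes I and III are also main sites at which superoxide, a source of hydrogen peroxide, forms in the cell. Embryonic stem cells rely strongly on glycolysis but hold an assembled chain. Several subunits of complex IV come as a common isoform and a second isoform found in heart and muscle or in testis. Transcription factors NRF1 and GABP (an ETS family factor) are known to bind the promoters of many respiratory genes.

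Values are MAS5 signals on a linear scale, and changes are log2 differences of signal plus a small offset with their standard error (SE). A gene rose or fell here only where limma gave an adjusted p below 0.05 over all probe sets tested. Counts at an unadjusted p below 0.05 are given beside some calls, but the share over all genes at that limit was not counted. The brightest tested probe set stood for each gene. A signal cannot be set against that of another gene, because probe sets differ in how strongly they bind. In RNA from whole cultures, fewer cells of a type and less RNA per cell cannot be told apart.

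Facts of the whole arrays bear on the bright genes among these. The deposited scaling gave every array the same trimmed mean, but the brightest probe set read 14976 to 24225 at low dose and 19733 to 34685 at high dose, against 7206 to 8904 in controls. The number of probe sets above 8000 was 53 to 84 at low dose and 74 to 97 at high dose, against 0 to 7 in controls. Of the 68 respiratory genes tested, 23 had a mean signal above 2000, where a rise at high dose was common over the whole array. The share of genes this bright that rose was 27.8% for high dose against control, beside 5.36% of all 6414 genes. The Actb 3' to 5' probe ratio, a sign of RNA quality, was 1.11 to 1.49 at low dose, 1.05 to 1.49 at high dose and 0.871 to 1.99 in controls, with the highest value on control replicate 1.

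At low dose more of these genes were lower than higher against controls, most of them in complex I, where 9 of 30 fell (30%). The counts lower and higher were 1 and 0 of 4 in complex II, 2 and 1 of 8 in complex III, 0 and 3 of 12 in complex IV, and 2 and 0 of 14 in ATP synthase. A difference between complexes was not tested. In all, 14 of the 68 genes fell and 4 rose against control, 20.6% and 5.88%, with 12.7% lower and 11.9% higher among all 6414 genes tested. Either way, 18 of 68 passed (26.5%), against 24.6% of all genes. The median change was -0.15 over the 68 genes and 0.04 over all genes, and 46 of the 68 changes were negative. With arrays scaled to a common median signal, 20 fell and 1 rose, the rises of Uqcrb, Cox6c and Cox5b being lost, and the median of all genes itself moved to -0.13. The shares of all genes that passed in that refit are not given here, so its counts have no background beside them. Of genes whose low-dose arrays lay wholly apart from the controls, 21 were lower and 7 higher among the 68, against backgrounds of 15.2% lower and 17.2% higher. Among the 23 genes above a signal of 2000, 2 rose and 3 fell, and 21.2% and 14.1% of all genes that bright did so.

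**Figure D1:**
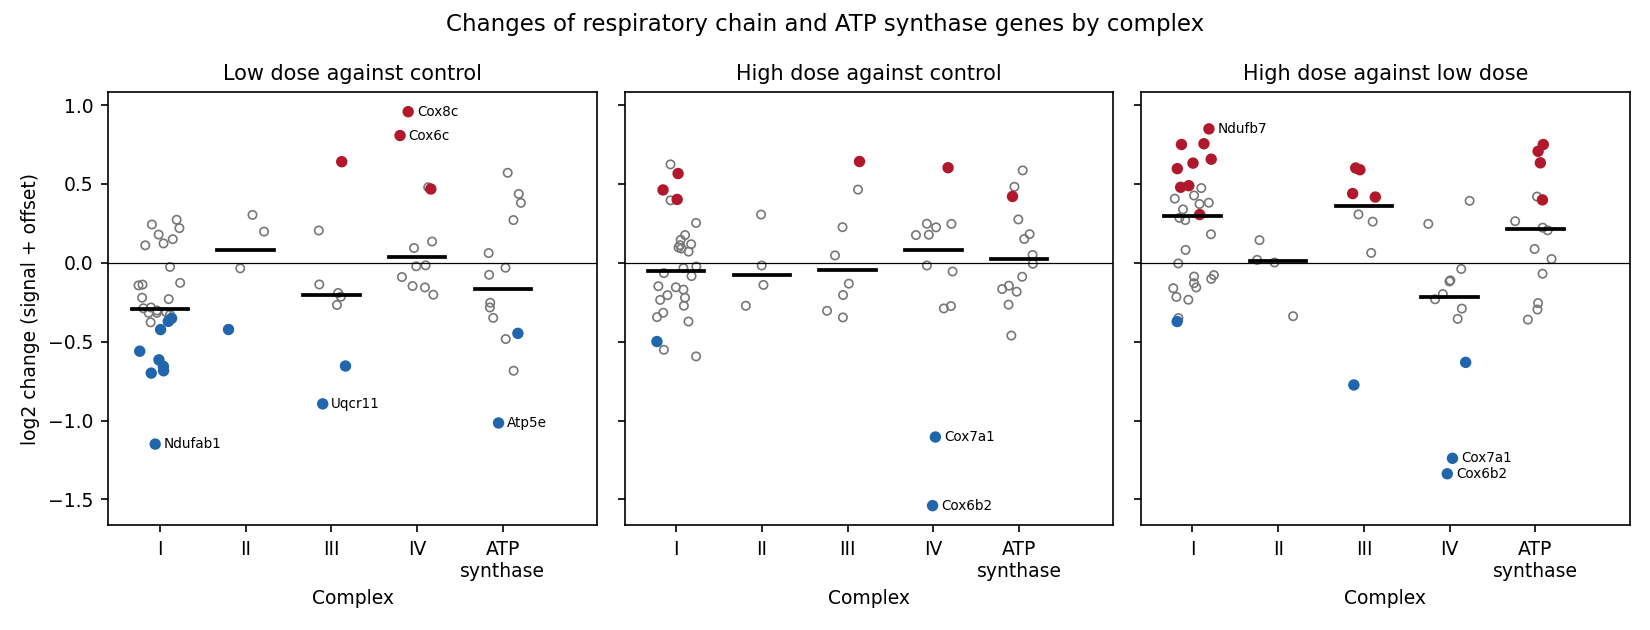
Each point is the log2 change of 1 gene, in the columns of its complex, for low dose against control, high dose against control and high dose against low dose. Filled red points passed the test as higher and filled blue points as lower, open points did not pass, and the black bar is the median of the complex. In complex I, 9 of 30 genes lie below 0 as filled points at low dose against control, and Cox6b2 of complex IV is the lowest point in both high-dose panels.

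In complex I, 9 of 30 genes fell at low dose against control and none rose by limma, with 12 lower and 1 higher at an unadjusted p below 0.05. The median of the 30 changes was -0.30. The core subunits that fell were Ndufv1, which carries the flavin that takes electrons from NADH, and Ndufv2, its iron-sulfur neighbour. Ndufv1 read 2799, 2812, 2982 and 2950 on low-dose arrays, against 3622, 3711 and 3723 on control arrays. Its change was -0.35 ± 0.11 (SE, adjusted p = 0.0337, limma). Ndufv2 read 1664, 1276, 1550 and 1311 at low dose, against 2409, 2026 and 1978 in controls. For both genes every low-dose array was below every control array, and for Ndufv2 the change was -0.56 ± 0.13. A dim second probe set of Ndufv2 gave 0.47 with an adjusted p of 0.142 in limma, so the fall of Ndufv2 rests on its bright probe set. The other core subunits measured, Ndufs1 and Ndufs3, did not pass.

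The supernumerary subunits, which surround the catalytic core, held the rest of the complex I falls together with the assembly factor Ndufaf1 (-0.42 ± 0.15). Ndufab1, the mitochondrial acyl carrier protein, which also serves fatty acid synthesis in the organelle, showed the greatest change of the 68 genes. It read 1094, 858, 562 and 1067 at low dose, against 1901, 1775 and 2143 in controls, and changed by -1.15 ± 0.20 (adjusted p = 0.000989, limma). Ndufb10, a membrane arm subunit, read 907, 812, 729 and 781 at low dose, against 1282, 1202 and 1422 in controls, a change of -0.68 ± 0.12. In both genes the groups did not overlap. Ndufc1, of the membrane arm, changed by -0.70, and the peripheral arm subunits Ndufa2 and Ndufa6 by -0.66 and -0.62. Ndufb6, of the membrane arm, changed by -0.37. The falls of Ndufa6, Ndufab1, Ndufb10, Ndufc1 and Ndufv2 passed in all 23 refits that could test them. The fall of Ndufa2 did not pass without control replicate 1 (adjusted p = 0.0546 in limma), and those of Ndufaf1, Ndufb6 and Ndufv1 failed with 8, 7 and 6 of the 12 arrays left out in turn.

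Complex II, which is both a chain complex and an enzyme of the citric acid cycle, had 1 fall among its 4 genes. Sdhb, the iron-sulfur subunit, read 1344, 1451, 1560 and 1479 at low dose, against 2036, 1939 and 1871 in controls. Its change was -0.42 ± 0.11 (adjusted p = 0.0123, limma), with no overlap of the groups. The flavoprotein Sdha changed by -0.04, and the membrane anchors Sdhc and Sdhd by 0.30 and 0.20, none of them past the threshold.

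In complex III, Uqcr11 and Uqcrh fell at low dose against control and Uqcrb rose. The small subunit Uqcr11 read 879, 938, 874 and 792 at low dose, against 2063, 1260 and 1647 in controls, a change of -0.89 ± 0.15 (adjusted p = 0.00077, limma). Uqcrh, the hinge protein beside cytochrome c1, changed by -0.65 ± 0.17, which did not pass without control replicate 1 (adjusted p = 0.0697 in limma). Uqcrb, a subunit of the ubiquinone-binding part, read 2214, 3701, 2708 and 2009 at low dose, against 1979, 1536 and 1485 in controls. The lowest low-dose value of Uqcrb was just above the highest control value, and the probe set is one of a sequence family that may read related transcripts. Its change of 0.64 ± 0.19 did not pass when control replicate 2 or 3, or low-dose replicate 2 or 3, was left out.

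In ATP synthase, Atp5e and Atp5o were the 2 of 14 genes that fell at low dose. Atp5e, the epsilon subunit of the F1 head, read 611, 743, 631 and 644 at low dose, against 1536, 1184 and 1308 in controls. The groups did not overlap, and the change of -1.02 ± 0.14 had the smallest adjusted p of the 68 genes (0.000157, limma). Atp5o, the stalk subunit known as OSCP, changed by -0.45 ± 0.14 and failed with 6 of the 12 arrays left out in turn. The F1 gamma gene Atp5c1 had probe sets that disagreed, with -0.35 (adjusted p = 0.0504, limma) for the brighter and 0.34 (adjusted p = 0.0528) for the other. Of the probe sets of Atp5d, the delta subunit, the brightest gave -0.03, while a dimmer one gave -0.67 and passed (adjusted p = 0.00204, limma), so the gene's direction is uncertain.

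**Figure D2:**
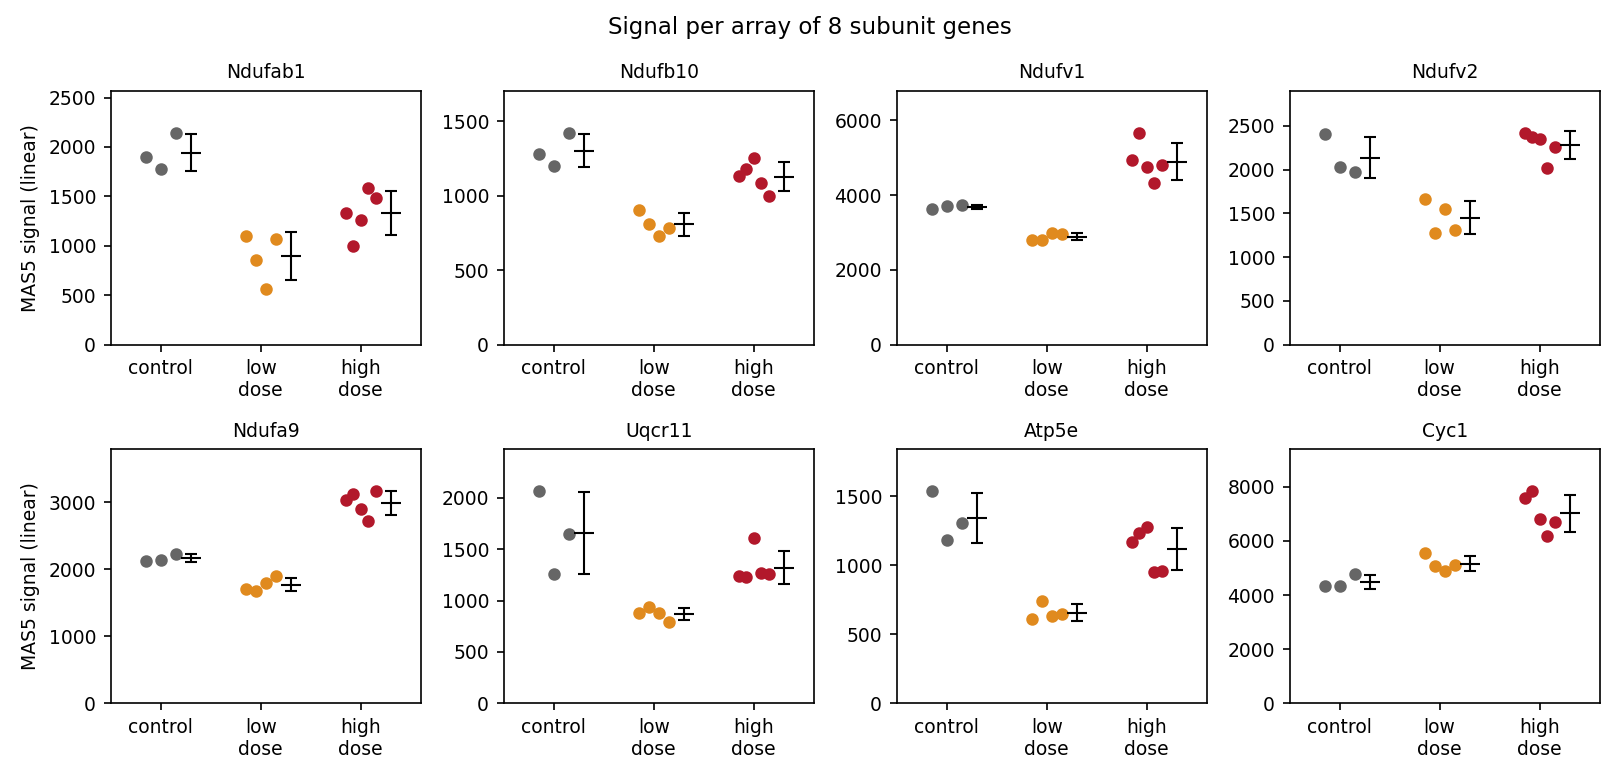
MAS5 signal on a linear axis from 0 for 8 subunit genes, with 1 point for each array of control (3), low-dose (4) and high-dose (5) cells and a bar for the mean with its SD. The low-dose points of Ndufab1, Ndufb10, Ndufv1, Ndufv2, Ndufa9, Uqcr11 and Atp5e all lie below the control points, and the high-dose points of Ndufv1, Ndufa9 and Cyc1 all lie above them.

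Complex IV had no fall at low dose, and 3 of its 12 genes rose (25%, against 11.9% of all genes), with 4 higher and none lower at an unadjusted p below 0.05 in limma. Cox6c, a small membrane subunit, read 3651, 5176, 4482 and 2705 at low dose, against 2697, 1863 and 2176 in controls, a change of 0.81 ± 0.22. Its lowest low-dose array was almost level with the highest control array, its probe set is one of a sequence family, and the call was lost without control replicate 2 (adjusted p = 0.0727, limma). Cox5b, the zinc-binding subunit, changed by 0.47 ± 0.16, a rise that failed with 7 of the 12 arrays left out in turn. With arrays scaled to a common median signal the calls of both Cox6c (adjusted p = 0.0904, limma) and Cox5b (adjusted p = 0.355) were lost, and only that of Cox8c passed. Cox8c, the testis isoform of subunit 8, is described with the other isoforms below.

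The promoters of these genes can be set beside the changes. RefSeq windows of 300 bases, 250 before to 50 after the start of the gene on build GRCm38.p6, were found for 58 of the 72 genes and searched on both strands for CGCANGCG, the core of the NRF1 motif, and CCGGAAG, a core of ETS sites such as those of GABP. The cores can overlap only at their ends, and a window counts once for each. One or the other was present in 30 of the 58 (51.7%), against 22.8% of 17492 protein-coding genes and 17.3% of all 27025 genes with a window. The NRF1 core was in 21 (36.2%) and the ETS core in 16 (27.6%), against 12.5% and 12.9% of protein-coding genes. By complex, 11 of 28 windows of complex I held a match, 3 of 3 of complex II, 4 of 4 of complex III, 3 of 11 of complex IV and 9 of 12 of ATP synthase. Of the 13 genes with a window that fell at low dose, 9 held a match (69.2%). Of the 33 with no call in any comparison, 15 did (45.5%). For the NRF1 core alone the shares were 4 of 13 (30.8%) and 13 of 33 (39.4%), so lower among the falls. For the ETS core they were 6 of 13 (46.2%) and 7 of 33 (21.2%), so higher among the falls. These differences were not tested. A match of letters is a description of the window only.

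The windows of Ndufb10 (chr17:24724374-24724673, minus strand), Uqcr11 (chr10:80406772-80407071, minus strand) and Atp5e (chr2:174464052-174464351, minus strand) are shown because these genes were among the clearest falls at low dose and hold 2 NRF1 cores, 1 core of each kind and 1 ETS core on the opposite strand. They were picked as falls with matches, and the windows of Ndufab1, the greatest fall, and of Ndufc1 and Ndufv2 hold neither core. The window of Cox6b2 (chr7:4753045-4753344, minus strand) is shown because this gene had the greatest change at high dose and holds no match. Capitals mark the matches.

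Ndufb10: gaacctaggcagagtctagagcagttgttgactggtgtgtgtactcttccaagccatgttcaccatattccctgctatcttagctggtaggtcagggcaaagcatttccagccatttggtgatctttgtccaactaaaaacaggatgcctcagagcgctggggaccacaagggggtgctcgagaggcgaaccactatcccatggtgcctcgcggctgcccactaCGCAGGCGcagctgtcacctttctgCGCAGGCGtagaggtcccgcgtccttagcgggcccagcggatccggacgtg

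Uqcr11: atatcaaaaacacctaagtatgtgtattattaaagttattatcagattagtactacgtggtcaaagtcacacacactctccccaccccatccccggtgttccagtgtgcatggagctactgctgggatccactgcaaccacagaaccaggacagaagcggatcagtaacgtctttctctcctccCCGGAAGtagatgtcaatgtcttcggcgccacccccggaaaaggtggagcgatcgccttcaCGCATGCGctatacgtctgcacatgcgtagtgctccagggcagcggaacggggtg

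Atp5e: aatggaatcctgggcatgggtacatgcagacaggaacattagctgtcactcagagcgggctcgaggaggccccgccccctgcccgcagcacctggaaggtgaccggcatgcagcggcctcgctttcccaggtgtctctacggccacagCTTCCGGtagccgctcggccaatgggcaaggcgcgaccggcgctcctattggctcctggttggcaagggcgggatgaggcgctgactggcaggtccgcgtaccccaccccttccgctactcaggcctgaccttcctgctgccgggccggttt

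Cox6b2: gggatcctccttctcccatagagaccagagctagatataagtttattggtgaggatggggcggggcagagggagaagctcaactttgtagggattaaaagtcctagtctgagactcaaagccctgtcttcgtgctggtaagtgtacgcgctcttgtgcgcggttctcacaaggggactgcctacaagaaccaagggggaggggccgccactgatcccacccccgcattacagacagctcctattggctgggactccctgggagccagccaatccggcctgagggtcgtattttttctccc

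At high dose 6 of the 68 genes rose and 3 fell against control, 8.82% and 4.41%, with 5.36% higher and 6.84% lower among all genes tested. The 9 genes were 13.2% of those tested, against 12.2% of all genes, so as a group they passed about as often as the array did. The median change was -0.02 for the 68 genes and -0.01 for all genes. Arrays of the groups did not overlap for 7 genes higher and 7 lower, against backgrounds of 8.84% and 11.7%. The direction of the calls depended on the scaling, with 4 higher and 8 lower after quantile normalization and 1 higher and 4 lower with arrays scaled to a common median signal. Among the 23 genes above a signal of 2000, 4 rose (17.4%), against 27.8% of all genes that bright. None of the 23 fell (0 lower also at an unadjusted p below 0.05 in limma), against 0.980% of all genes that bright.

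Cyc1, the haem-bearing cytochrome c1 of complex III, gave the clearest rise at high dose. It read 7601, 7836, 6806, 6181 and 6693 at high dose, against 4344, 4324 and 4769 in controls, a change of 0.64 ± 0.12 (adjusted p = 0.00191, limma). All 5 high-dose arrays were above all 3 controls. The call was lost under quantile normalization, which evens out the bright end of the arrays (0.06, adjusted p = 0.802, limma), and a dimmer probe set of Cyc1 changed by 0.19 without passing.

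In complex I, Ndufb7, Ndufa9 and Ndufv1 rose at high dose and Ndufb9 fell. Ndufa9, at the junction of the arms of the complex, read 3032, 3132, 2904, 2721 and 3165 at high dose, against 2119, 2142 and 2236 in controls, with no overlap and a change of 0.46 ± 0.10. That call was lost with arrays scaled to a common median signal (adjusted p = 0.0634, limma). Ndufv1 read 4943, 5664, 4742, 4318 and 4798 at high dose, again above all controls, a change of 0.40 ± 0.11. It was below control at low dose and above it at high dose. Ndufb7, on the intermembrane face, changed by 0.57 ± 0.15, with 1 high-dose array within the control range. Ndufb9, of the membrane arm, read 948, 816, 937, 963 and 840 at high dose, against 1087, 1339 and 1420 in controls, a change of -0.50 ± 0.14 (adjusted p = 0.029, limma). The change of Ndufv1 was 0.07 under quantile normalization (adjusted p = 0.705, limma), and it did not pass without any 1 of the 3 controls or without high-dose replicate 1. The rise of Ndufb7 and the fall of Ndufb9 were each lost when control replicate 2 or 3 was left out, and that of Ndufb9 also without high-dose replicate 2 or 5. With a common median signal the calls of Ndufb7 and Ndufv1 were lost too.

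No gene of complex II passed at high dose by limma, with 1 higher and 1 lower at an unadjusted p below 0.05. In ATP synthase, Atp5g2 alone of 14 genes rose. It encodes the c subunit of the rotor ring and is 1 of several genes for the same protein. Its values were 630, 643, 727, 710 and 813 at high dose, against 482, 502 and 583 in controls, a change of 0.42 ± 0.12 (adjusted p = 0.0328, limma). The groups did not overlap, but the probe set is one of a sequence family, and the call was lost without control replicate 1 or 2 and without high-dose replicate 3, 4 or 5. A dim second probe set of Atp5g2 changed by 0.11 and did not pass. The sister gene Atp5g1 changed by 0.28 and did not pass.

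Cox6b2, the testis isoform of subunit 6b of complex IV, had the greatest change of the 68 genes at high dose. Its brightest probe set read 419, 430, 457, 406 and 418 at high dose, against 835, 1478 and 1604 in controls, a change of -1.54 ± 0.17 (adjusted p = 1.61e-05, limma). A second probe set read 78.9, 77.4, 92.1, 113 and 121 at high dose, against 238, 746 and 678 in controls, and changed by -2.27 ± 0.27 (adjusted p = 4.5e-05, limma). The brightest is one of a sequence family that may read related transcripts, so its signal may not be from this gene alone. On both, every high-dose array was below every control array, and control replicate 1 was the lowest of the controls. The remaining, dim probe set read 35.6 to 62.3 at high dose and 19.1 to 38.8 in controls and changed by 0.49 (adjusted p = 0.242, limma). The fall on the brightest probe set passed under every alternative that could be fitted, with changes of -1.83 to -1.36. At low dose the brightest probe set changed by -0.20 and the second by 0.74, with neither past the threshold.

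The common isoform Cox6b1 changed by 0.25 ± 0.20 at high dose against control and did not pass (adjusted p = 0.466, limma). Cox7a1, the heart and muscle isoform of subunit 7a, was dim. It read 32.5, 14.3, 24.9, 31.7 and 22.8 at high dose, against 52.0, 80.5 and 63.3 in controls, a change of -1.10 ± 0.26 with no overlap. That call was lost without control replicate 2 (adjusted p = 0.0734, limma). Its common counterpart Cox7a2 changed by 0.25, and Cox7a2l, a supercomplex factor related to subunit 7a, by 0.23, and neither passed. Cox8b, the muscle isoform of subunit 8, changed by -0.06.

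Cox8c, the testis isoform of subunit 8, was higher at both doses. It read 366, 434, 298 and 325 at low dose and 285, 346, 242, 205 and 311 at high dose, against 169, 190 and 171 in controls. All treated arrays were above all controls, and the changes were 0.96 ± 0.18 at low dose (adjusted p = 0.00139, limma) and 0.60 ± 0.17 at high dose (adjusted p = 0.0311). The call at low dose held in all refits, and that at high dose failed with 6 of the 12 arrays left out in turn. Its common counterpart Cox8a was below the filter.

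**Figure D3:**
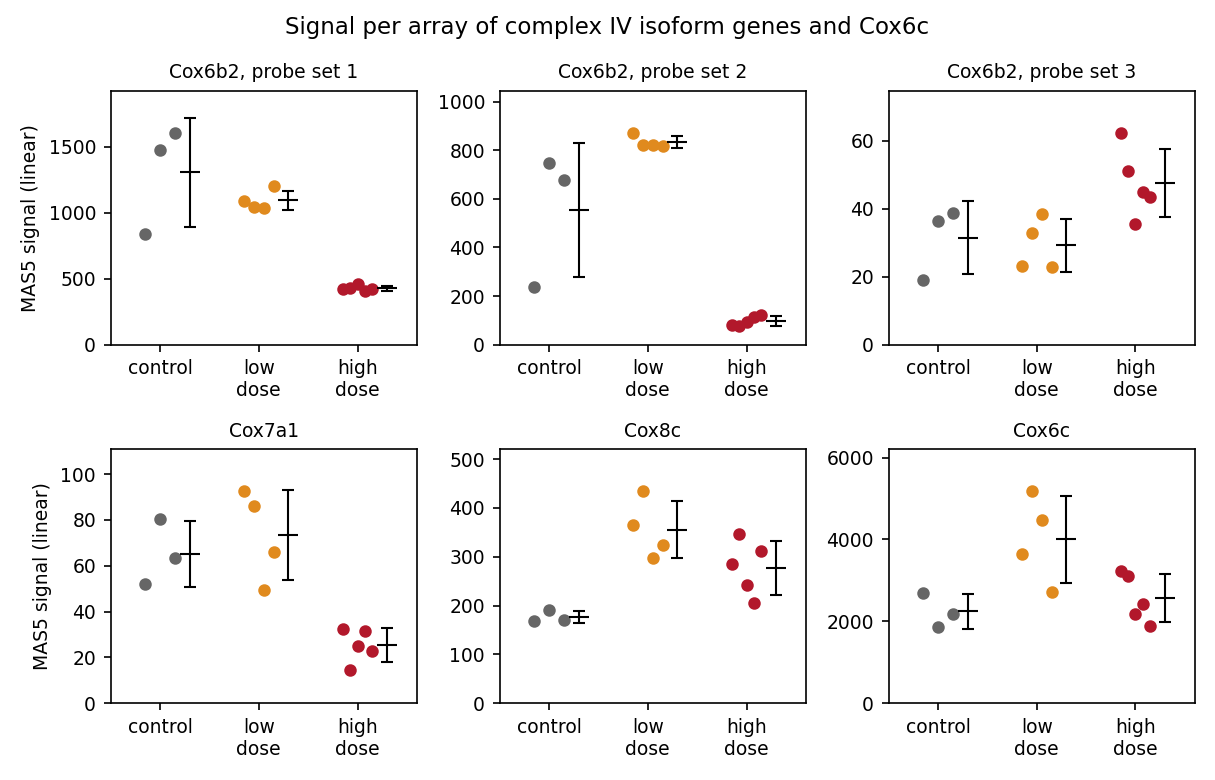
MAS5 signal on a linear axis from 0 for the 3 probe sets of Cox6b2 and for Cox7a1, Cox8c and Cox6c, with 1 point per array and a bar for the mean with its SD. The high-dose points of the first and second Cox6b2 probe sets and of Cox7a1 lie below all control and low-dose points, and those of Cox8c lie above all control points.

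Markers of other cell types were counted beside these isoform falls, and of these only primitive endoderm markers passed as lower at high dose. Among all genes tested, 6.84% were lower and 5.36% higher at high dose against control, and 12.7% and 11.9% at low dose. Of 17 tested markers of primitive endoderm, a cell type that arises in stem cell cultures, 12 were lower at high dose against control and 0 higher (0 higher also at an unadjusted p below 0.05 in limma). Their summed signal was 1721 to 1921 at high dose, against 7392 to 11617 in controls, with Hnf4a below the filter in all. At low dose 7 of the 17 were higher and the sum was 10967 to 12144. Of 6 tested striated muscle markers, none passed at high dose (0 also at an unadjusted p below 0.05 in limma), their sums were 278 to 457 at high dose and 264 to 478 in controls, and Acta1, Mb, Myh6, Tnnt2 and Tnnt3 were below the filter. At low dose 1 of the 6 was higher, with 4 higher at an unadjusted p below 0.05 in limma, and the sums were 420 to 659. Of 7 tested fibroblast markers none passed at high dose against control (2 higher and 1 lower at an unadjusted p below 0.05 in limma), and 7 more, among them Col3a1, Dcn and Postn, were below the filter. At low dose 1 was higher and 1 lower, with sums of 975 to 1159. The sums of the 7 tested were 874 to 1156 at high dose and 796 to 1127 in controls. Of 12 embryonic stem cell markers, 3 were higher and 1 lower at high dose against control. Their sums were 34700 to 40241 at low dose and 32309 to 37772 at high dose, against 27863 to 31011 in controls, so the labelled cell type was present in every group. The part that a change of cell types had in the respiratory genes was not tested.

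High dose against low dose showed the greatest number of differences. Of the 68 genes, 17 were higher and 5 lower at high dose, 25% and 7.35%, with 13.8% higher and 15.2% lower among all genes tested. Together 22 genes passed (32.4%), against 29.0% of all genes. The median was 0.16 over the 68 genes and -0.04 over all genes. Arrays of the groups did not overlap for 15 genes higher and 3 lower, against backgrounds of 12.4% and 13.5%. After quantile normalization 15 were higher and 8 lower, and with a common median signal 22 were higher and 3 lower. The shares of all genes that passed in these refits are not given here. Among the 23 genes above a signal of 2000, 9 were higher (39.1%), against 34.3% of all genes that bright, and 1 was lower (4.35%, against 6.86%). Among the 45 at or below it, 8 were higher (17.8%) and 4 lower (8.89%), but the share over all genes that dim was not counted in this fit.

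Of the 17 higher genes, 9 were of complex I, 4 of complex III and 4 of ATP synthase. For complex I the median was 0.30, for complex III 0.36, for ATP synthase 0.21 and for complex IV -0.22. Ndufa9 read 3032, 3132, 2904, 2721 and 3165 at high dose, against 1710, 1675, 1802 and 1907 at low dose, a difference of 0.75 ± 0.09 (adjusted p = 2.37e-05, limma). Ndufv1 differed by 0.76 ± 0.10 and Ndufb7 by 0.85 ± 0.13, with no overlap of the arrays in either. Ndufv2, Ndufa2, Ndufab1, Ndufb5, Ndufb10 and Ndufb6 were also higher, by 0.66, 0.63, 0.60, 0.49, 0.48 and 0.31. The dim second probe set of Ndufv2 went the other way without passing (-0.52, adjusted p = 0.0615, limma).

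In complex III, the core protein Uqcrc2 and the small subunits Uqcr11 and Uqcrq were higher at high dose than at low dose, by 0.60, 0.59 and 0.42, and Cyc1 by 0.44. In ATP synthase Atp5e differed by 0.75 ± 0.12, and Atp5g2, Atp5l (subunit g of the membrane part) and Atp5c1 by 0.71, 0.63 and 0.40. The second probe set of Atp5c1 gave -0.11, that of Atp5l -0.37 and a dim one of Atp5g2 -0.18, with none past the threshold. Atp5e read 1166, 1232, 1280, 949 and 961 at high dose, against 611, 743, 631 and 644 at low dose. Its high-dose arrays lay between the low-dose and the control means, and its change against control did not pass at high dose (-0.27 ± 0.13, adjusted p = 0.22, limma).

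The 5 genes lower at high dose than at low dose were Cox6b2, Cox7a1 and Cox6c of complex IV, Uqcrb and Ndufb9. For Cox6b2 the difference was -1.34 ± 0.15 on the brightest probe set and -3.00 ± 0.25 on the second. The second read 871, 823, 822 and 817 at low dose. Cox7a1 differed by -1.24 ± 0.24, Uqcrb by -0.77 ± 0.17, Cox6c by -0.63 ± 0.19 and Ndufb9 by -0.37 ± 0.13. No gene of complex II passed in this comparison by limma, and none had an unadjusted p below 0.05. The calls of Ndufb6, Uqcrq, Ndufb9, Uqcrc2 and Cox6c were each lost with 4 or more arrays left out in turn, that of Ndufab1 without low-dose replicate 3, and those of Ndufb5, Cyc1 and Atp5c1 under quantile normalization.

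**Figure D4:**
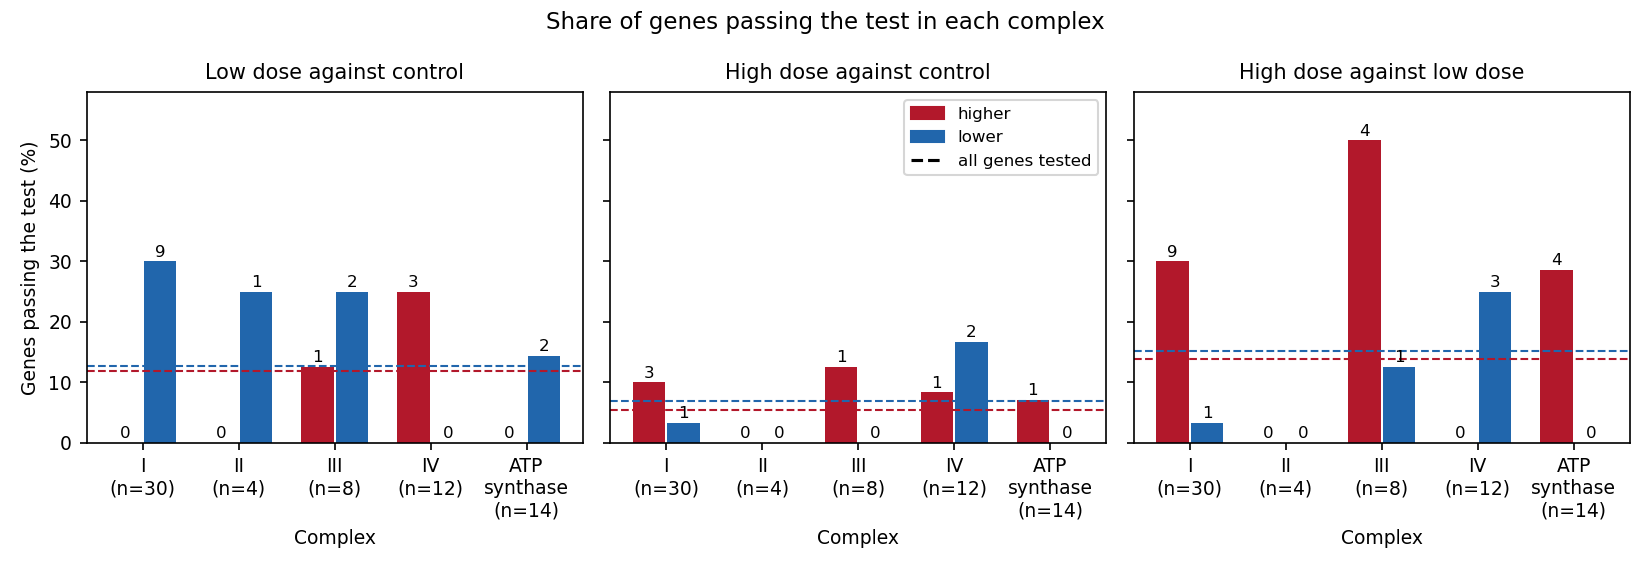
Bars give the percentage of the tested genes of each complex that passed as higher (red) or lower (blue) in the 3 comparisons, with the number of genes above each bar. Dashed lines mark the same shares over all 6414 genes. For low dose against control the lower bar of complex I stands at 30% against 12.7% of all genes, and for high dose against low dose its higher bar stands at 30% against 13.8%.

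The comparisons share arrays, so the changes of a gene are given side by side rather than as independent results. The 24 genes of the 68 with no call and no other reason to be named changed by -0.68 to 0.27 at low dose against control and by -0.59 to 0.48 at high dose against control. Against low dose their high-dose values differed by -0.36 to 0.47. Among the 2 brightest genes of each complex and others named by rule, Atp5a1, the alpha subunit, changed by 0.44 at low dose (adjusted p = 0.0539, limma) and by 0.18 at high dose. Cox4i1, the largest nuclear-encoded subunit of complex IV, changed by -0.16 at low dose and -0.27 at high dose on its brightest probe set, neither past the threshold. A dimmer probe set of Cox4i1 went the other way, by 0.42 and 0.35, and did not pass either, so the gene's direction is uncertain. Cox6a1 changed by 0.09 at low dose, and by -0.59 under quantile normalization, where it passed (adjusted p = 0.00202, limma).

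Other genes of the pathway were counted from lists that overlap none of the 68. The shares of all 6414 genes to set beside each count were 12.7% lower and 11.9% higher at low dose against control. They were 6.84% and 5.36% at high dose against control, and 15.2% and 13.8% for high dose against low dose. No list was tested as a set. Of 18 tested genes of protein import and folding in mitochondria, 6 were lower and 2 higher at low dose against control. The lowest were Timm44, which couples the import motor to the channel, with -1.13, and the small chaperones Timm13 and Timm9 with -0.93 and -0.91. The 2 higher were Tomm20, with 1.03, and Hspe1, with 0.82. At high dose none was lower by limma (2 at an unadjusted p below 0.05), and the chaperones Hspa9 and Hspe1 were higher by 0.51 and 0.55. For high dose against low dose 6 were higher and 1 lower. Timm44 read 712, 997, 728, 500 and 699 at high dose and 345, 293, 259 and 372 at low dose, against 633, 815 and 656 in controls.

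Of 10 tested assembly factors, Cox17, a copper chaperone of complex IV, and Lrpprc, which stabilises mitochondrial messengers, were lower at low dose (-0.58 and -0.62), and Tmem70, an ATP synthase assembly factor, was higher (1.38). None of the 10 passed at high dose by limma, with 1 higher and 3 lower at an unadjusted p below 0.05. Of 7 tested genes for cytochrome c and ubiquinone synthesis, Coq3 and Coq7, enzymes of ubiquinone synthesis, were lower at low dose (-0.97 and -0.45). None of the 7 passed at high dose against control, with 2 lower at an unadjusted p below 0.05 in limma. Of 15 genes of pyruvate dehydrogenase and the citric acid cycle, 1 was lower (Suclg2, -0.89) and 2 higher (Dld, 0.46, and Sucla2, 0.44) at low dose. None passed at high dose against control, with 5 lower at an unadjusted p below 0.05 in limma.

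Of 11 tested carriers and channels, 2 were higher and 2 lower at low dose against control. The higher were the carnitine carrier gene Slc25a20 (1.23) and Nnt (0.64). The lower were the oxoglutarate carrier gene Slc25a11 (-0.68) and Slc25a1 (-0.62). At high dose against control none was higher and 2 were lower, Slc25a20 (-0.51) and Slc25a11 (-0.81). Of 12 tested regulators of mitochondrial gene expression, Yy1 was higher at low dose (0.94), while Myc, Polrmt, the mitochondrial RNA polymerase, and Pprc1, a coactivator related to PGC-1, were lower (-1.36, -0.73 and -0.68). Polrmt and Pprc1 were also lower at high dose (-0.56 and -0.87). Gabpa, which encodes the DNA-binding subunit of GABP, was lower at high dose than at low dose (-0.93, adjusted p = 0.000892, limma) and did not pass against control.

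The median changes of these lists at low dose against control were -0.45 for cytochrome c and ubiquinone synthesis, -0.25 for import and folding, -0.13 for assembly factors, -0.09 for the citric acid cycle list, -0.06 for the regulators and 0.20 for the carriers, beside 0.04 for all genes. At high dose against control they lay between -0.18 for the regulators and 0.11 for the carriers, beside -0.01 for all genes. For high dose against low dose, 2 genes were higher and 1 lower in the list of cytochrome c and ubiquinone synthesis, 1 and 1 among assembly factors, 1 and 2 among carriers and 2 and 2 among regulators. In the citric acid cycle list 2 were lower, Idh3g (-0.50) and Sucla2 (-0.51), and none was higher by limma, with 3 higher at an unadjusted p below 0.05.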

How the data were processed

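Each array has 1 deposited intensity for each probe set, a linear value that is a MAS5 signal per the submitters' processing notes. Neither the MAS5 version nor its scaling target is given in the sources used here. The 2% trimmed means of the deposited arrays differed by 0.0195%, within a tolerance of 10%, so the deposited scaling was kept. Values were taken as log2(signal + 10.07), the offset being the 20th percentile of all values. Changes of dim probe sets are understated by this. Leaving out 66 Affymetrix controls, the 8695 probe sets with a mean log2 value above the 30th percentile were tested.

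Genes were named from the platform annotation, updated through RefSeq records. Of the 12488 probe sets, 10833 had 1 symbol, 396 several and 1193 none listed, controls aside. The 10 probe sets that pair a respiratory symbol with another were not used. Probe sets ending in f_at belong to sequence families (12 of the 68 standing for a gene). Of the rest, 50 ended in at alone, 1 in i_at (Atp5e), 2 in r_at (Cox6b1 and Cox8b), 2 in s_at and 1 in g_at. The second probe set of Cox6b2 also ended in i_at. No allowance was made for these endings. Of the 68 genes, 11 had more than 1 tested probe set.

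In limma 3.58.1 (R 4.3.3), 1 model with group means covered all 12 arrays (eBayes with a variance trend), two-sided, with Benjamini-Hochberg adjustment over the 8695 probe sets. Standard errors are the moderated ones. The steps were tested on simulated data. Arrays have no read depth, and their number limits the precision. Genes named are those called in any comparison, the 2 brightest and the most changed of each complex, complex II and the paralogue groups. From each pathway list at most 3 called genes per comparison and direction are named. The genes and lists were chosen with earlier results of these data known. Replicate numbers were not used as pairs. Deviations of same-numbered arrays correlated by -0.178 to 0.148 over 10 pairs, which cannot show that the samples were unpaired, and the labels name no pairing. Alternatives were quantile normalization, a common median, a floor or 4 times the offset, a filter at the 50th percentile or none, array weights, no variance trend, only the groups compared, a replicate block, no probe set above 2000, every probe set on its own, and each array left out.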

Additional observations from a re-analysis of the deposited data

Results flagged for a closer look

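In 4 of 88 groups of 4 or 5 arrays, 1 array stood apart from the others of its group by Dixon's ratio, and chance gives about 1 in 20. Ndufc2 read 9.07 on low-dose replicate 1, against 26.0 to 29.8 on the other low-dose arrays (ratio 0.862). Sdhc read 1921 on the same array, against 2378 to 2475 (0.842). Atp5g2 read 471.3 there, against 407.7 to 414.7 (0.884). Uqcr11 read 1610 on high-dose replicate 3, against 1232 to 1266 on the other high-dose arrays (0.898).

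For 3 genes the doses moved apart, since every high-dose array was above all controls and every low-dose array below all controls. The genes were picked by this pattern, so their differences between the doses are a description, with no test. The low-dose changes of Ndufa9 (adjusted p = 0.0593, limma) and Atp5g2 (adjusted p = 0.117) did not pass. For Ndufa9 the difference between the doses was 0.75 on the log2 scale, with 0.46 at high dose and -0.29 at low dose against control. For Ndufv1 it was 0.755, with 0.40 at high dose and -0.35 at low dose. For Atp5g2 it was 0.707, with 0.42 at high dose and -0.28 at low dose. A dim second probe set of Atp5g2 did not show this pattern, with 0.106 at high dose and 0.285 at low dose, neither past the threshold.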

How the results depend on the processing

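Over 24 alternatives, 23 of the 49 calls of a gene in a comparison passed wherever they could be fitted, and 26 were lost under at least 1. The count at low dose against control, 18, stayed within 1.5 times under every alternative, with 12 to 18 leaving out 1 array. For high dose against control the count of 9 was 5 with a common median signal and 5 without the variance trend. It was 3 to 10 leaving out 1 array, the lowest without control replicate 2 and 5 without control replicate 3. For high dose against low dose the count of 22 was 18 to 24 leaving out 1 array. Leaving out probe sets above 2000 left 47 genes to test. The counts were then 5 for high dose against control and 12 for high dose against low dose. The main fit already had 5 and 12 calls among the genes at or below 2000. These 2 lower counts thus follow from the genes removed and show no dependence on processing. Under quantile normalization Ndufb5 and Atp5c1 at high dose against control became lower (-0.65, adjusted p = 0.000955, and -0.37, adjusted p = 0.0291, limma), as did Cox6a1 at low dose (-0.588). The cause was not tested. With the replicate number as a block the counts were 15 at low dose and 6 at high dose against control, and 20 between the doses, and the high-dose calls of Ndufa9 and Cox7a1 were among those lost. The labels name no pairing, so the block has no known meaning here. Of the 12 arrays 4 correlated best with their own number, and high-dose replicate 5 had no partner of its number. That cannot show whether the samples were paired. Dim probe sets limit what can be said of Cox7a1, Ndufc2 and the 4 genes below the filter.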
